A study of Mus musculus with 6 samples.

Results

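The mitochondrial ribosomal protein genes were followed through Eμ-Myc lymphomagenesis in 6 RNA-seq libraries. They were taken as the protein-coding genes of the GENCODE vM1 annotation whose symbols start with Mrpl or Mrps followed by a number. No gene was added or left out for its expression, but the set was chosen with earlier results of these data known. The annotation gave 76 such genes, 47 Mrpl and 29 Mrps genes, among 37991 genes in the count tables, and they lay on 17 chromosomes with at most 10 on any of them. The libraries were made from poly(A) RNA of pre-B cells sorted from the bone marrow of C57BL/6 mice, with 2 libraries per stage. Wild-type mice and premalignant mice, which were heterozygous for the Eμ-Myc transgene, were 4 to 6 weeks old, and malignant Eμ-Myc mice with lymphoma were 10 to 20 weeks old. The transgene places Myc under the immunoglobulin heavy chain enhancer and acts in B-lineage cells. The sort took B220-high, IgM-low, IgD-low pro-B and pre-B cells in wild type and premalignant mice, and B220-positive cells negative for IgM and IgD in malignant mice. Wild-type and premalignant cells came from females, and malignant cells in the study came from either sex. The 3 stages thus share strain and tissue, whereas age, sort gate and possibly sex differ between malignant cells and both other groups and cannot be told apart from malignancy.

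Mitochondria keep a small genome that encodes core subunits of the respiratory chain, and they translate its mRNAs on a ribosome of their own. The rRNAs of that ribosome are made inside the organelle, whereas all of its proteins are encoded in the nucleus, made in the cytosol and imported. Proteins named MRPL belong to the large subunit, which holds the peptidyl transferase centre and the exit tunnel, and most named MRPS belong to the small subunit, which holds the decoding centre. Many descend from proteins of bacterial ribosomes and others were added during the evolution of mitochondria. MYC is a transcription factor that binds the E-box and is known for raising the expression of genes for ribosomes and mitochondria.

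The replicate 1 library of each stage was the deeper one, at 51065861 to 53453055 counts against 30031100 to 34543633 counts for replicate 2. Myc, the gene that the transgene carries, stood at 33.7 and 41.4 CPM (read counts over library sizes scaled by TMM) in wild type, at 1164 and 1155 CPM in premalignant and at 1731 and 1577 CPM in malignant cells. The B-cell markers Cd79a and Cd79b, which encode the signalling chains of the B-cell receptor, lay between 616 and 1479 CPM in every library. The summed level of 10 B-lineage markers was 6848 and 7683 CPM in wild type, 3388 and 3380 CPM in premalignant and 3166 and 2778 CPM in malignant cells. Beside 20.3% of all genes tested in premalignant and 24.3% in malignant cells, 9 of the 10 were called lower in each stage than in wild type. Genes of the surrogate light chain and of V(D)J recombination were among them, with Igll1 at 197 and 195 CPM in wild type and between 0.167 and 18.8 CPM in the 4 Eμ-Myc libraries. Summed over 8 myeloid markers, wild type had 776 and 1705 CPM, premalignant 232 and 249 CPM and malignant cells 55.5 and 113 CPM. Summed over 5 erythroid markers, wild type had 293 and 1080 CPM and the Eμ-Myc libraries between 52.3 and 138 CPM, and 4 T-cell markers summed to between 0.502 and 62.0 CPM, with Cd3e at 0 in premalignant replicate 2. In bulk libraries fewer cells of a type and less RNA per cell cannot be told apart. The part of these cell type differences in the results that follow was not tested.

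The first comparison asked how the genes differed between wild-type cells and cells that carried the oncogene before lymphoma. In premalignant cells 69 of the 76 genes rose and none fell, against 19% of all 16683 genes tested called higher and 20.3% called lower. Calls needed an adjusted p of 0.1 or less (edgeR's quasi-likelihood test, adjusted by Benjamini-Hochberg over all genes) and a log2 fold change of 0.5 or more in size. The median log2 fold change over the 76 genes was 0.90, that is 1.87-fold, with an interquartile range of 0.70 to 1.12, beside a median of -0.08 over all genes tested. The largest rise was 1.98 and the smallest value 0.02, and 25 genes rose and none fell by at least 2-fold, beside 10.5% and 15.2% of all genes. In 73 of the 76 genes both premalignant libraries were above both wild-type libraries and in none below them, beside 36.2% and 41.2% of all genes tested. All 76 genes passed the filter on low counts. DESeq2 called 69 higher and 0 lower, beside 12.7% and 12.3% of the 26485 genes it was given. Those include low-count genes left out of the 16683, so these shares cannot be set against those of edgeR. At an unadjusted p under 0.05 edgeR gave 71 higher and 0 lower, beside 21.6% and 22.6% of all genes. The count of calls depended on single libraries. Without wild type replicate 2, the library with most myeloid and erythroid marker RNA, 43 genes were called beside 9.76% of all genes, and without premalignant replicate 1 or 2 it was 31 beside 8.79% or 6.8% of all genes, while the median stayed between 0.79 and 0.98 whichever library was left out. With a single library left in a stage the fit assumes that it varies like the others.

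The same question was put to lymphoma cells and wild type. In malignant cells 70 of the 76 genes rose and none fell, where 24.9% of all genes were called higher and 24.3% lower. The median log2 fold change was 1.04, or 2.06-fold, with an interquartile range of 0.72 to 1.36 and a range of -0.46 to 2.16, and all genes tested had a median of -0.02. Here 42 genes rose and none fell by at least 2-fold, beside 16.6% and 18.9% of all genes. Both malignant libraries were above both wild-type libraries in 73 genes and below them in 1, beside 35.3% and 36.4% of all genes. DESeq2 called 70 higher and 0 lower, beside 15.4% and 15.2% of the genes it was given. At an unadjusted p under 0.05 edgeR gave 71 higher and 1 lower, Mrpl49, beside 26.4% and 25.4% of all genes. This comparison shares the wild-type libraries with the first. With the libraries taken by replicate number, the median log2 ratio of malignant to wild type was 1.00 between the deeper libraries and 1.03 between the shallower ones, and that of premalignant to wild type was 0.79 and 0.99.

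**Figure D1:**
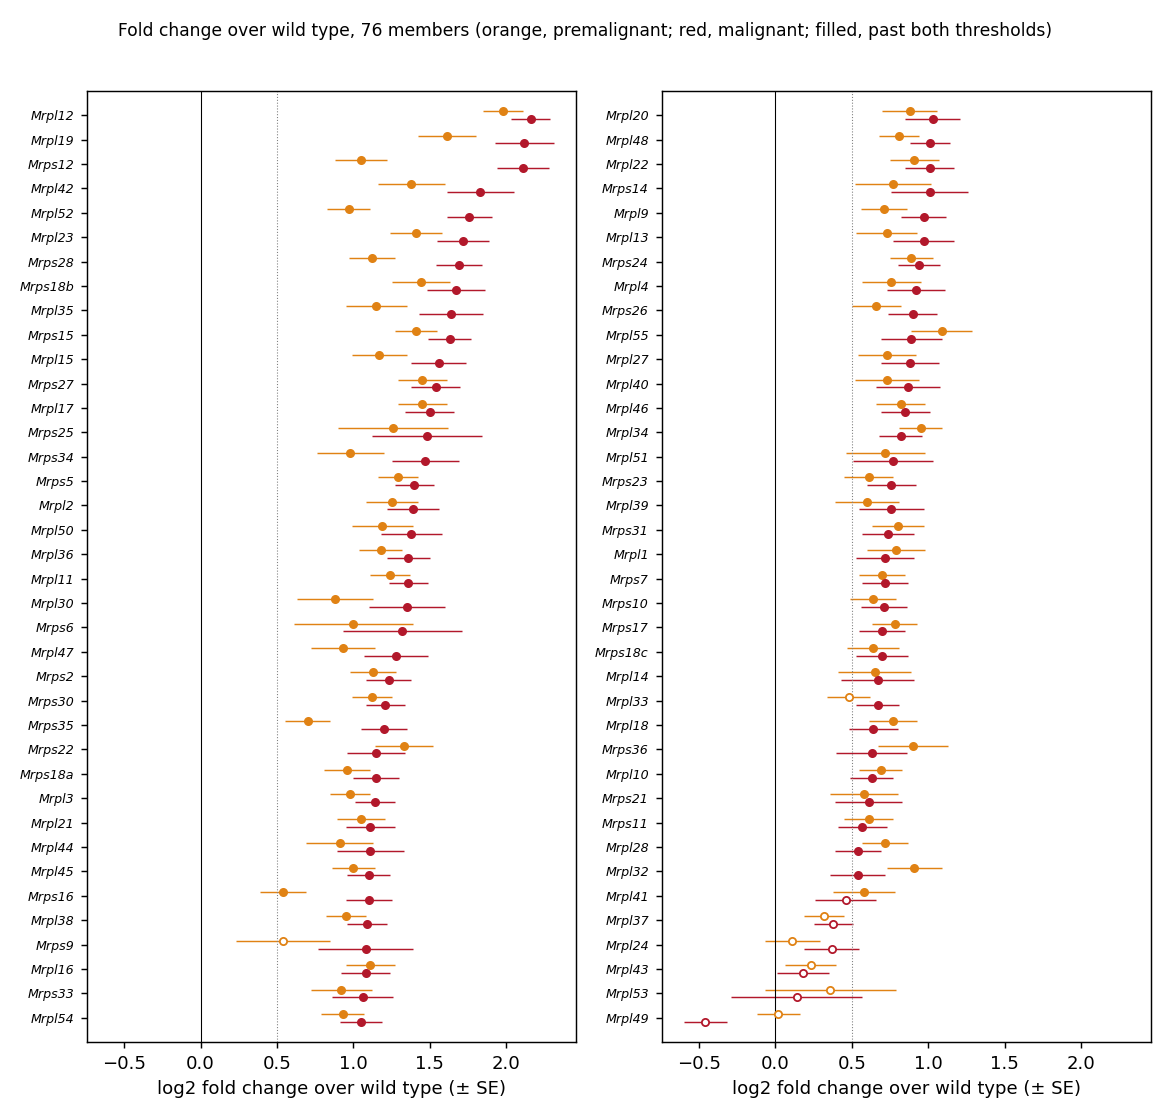
Log2 fold change over wild type (x axis, ± SE of the edgeR fit) of each of the 76 genes (y axis, ordered by the malignant value) in premalignant (orange) and malignant (red) cells; filled points passed both thresholds, the solid line is 0 and the dotted line 0.5. Most points lie to the right of 0.5 in both stages, from Mrpl12 at 1.98 and 2.16 down to Mrpl49 at 0.02 and -0.46.

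The largest rise in both Eμ-Myc stages was that of Mrpl12 (ENSMUSG00000039640). MRPL12 forms the flexible stalk of the large subunit, which recruits translation factors, and is also known to bind the mitochondrial RNA polymerase. Its level was 40.0 and 35.7 CPM in wild type, 151 and 147 CPM in premalignant and 166 and 172 CPM in malignant cells. The Eμ-Myc libraries were thus all far above the wild-type libraries, with log2 fold changes of 1.98 ± 0.13 in premalignant (SE, edgeR adjusted p = 0.00147) and 2.16 ± 0.13 in malignant cells (edgeR adjusted p = 0.00054). Mrpl12 lies in 5 merged exons on chromosome 11, bases 120345927 to 120350379 of NCBIM37 (mm9). An unrelated transcript on the other strand, Gm16755, shares 13.1% of its exon bases.

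Mrpl19 had the next largest change, with 27.9 and 25.5 CPM in wild type, 79.5 and 83.1 CPM in premalignant and 96.9 and 135 CPM in malignant cells. The stages did not overlap, although the malignant libraries were farther apart than the others. Its log2 fold changes were 1.61 ± 0.19 (edgeR adjusted p = 0.00343) and 2.12 ± 0.19 (edgeR adjusted p = 0.000949). As 36.0% of its exon bases also lie in AW146020 on the other strand and the library kit does not mark strand, the value of Mrpl19 is uncertain. Mrpl42, a protein of the mitochondrial ribosome without a bacterial relative, stood at 33.7 and 26.4 CPM, then 78.7 and 77.7 CPM, then 87.3 and 126 CPM. It rose by 1.38 ± 0.22 in premalignant (edgeR adjusted p = 0.00753) and by 1.83 ± 0.22 in malignant cells (edgeR adjusted p = 0.00197). Mrpl17 and Mrps27 completed the 4 largest rises in premalignant cells. MRPL17 lines the region of the exit tunnel and MRPS27 is an RNA-binding pentatricopeptide repeat protein of the small subunit. Mrpl17 went from 19.1 and 18.7 CPM to 46.8 and 56.7 CPM, and Mrps27 from 15.5 and 16.2 CPM to 42.5 and 44.2 CPM, a log2 fold change of 1.45 in each. In malignant cells they were at 50.4 and 56.7 CPM and at 42.4 and 49.99 CPM, within or close to the premalignant values. As 22.6% of the exon bases of Mrps27 overlap another gene, its value is also uncertain.

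**Figure D2:**
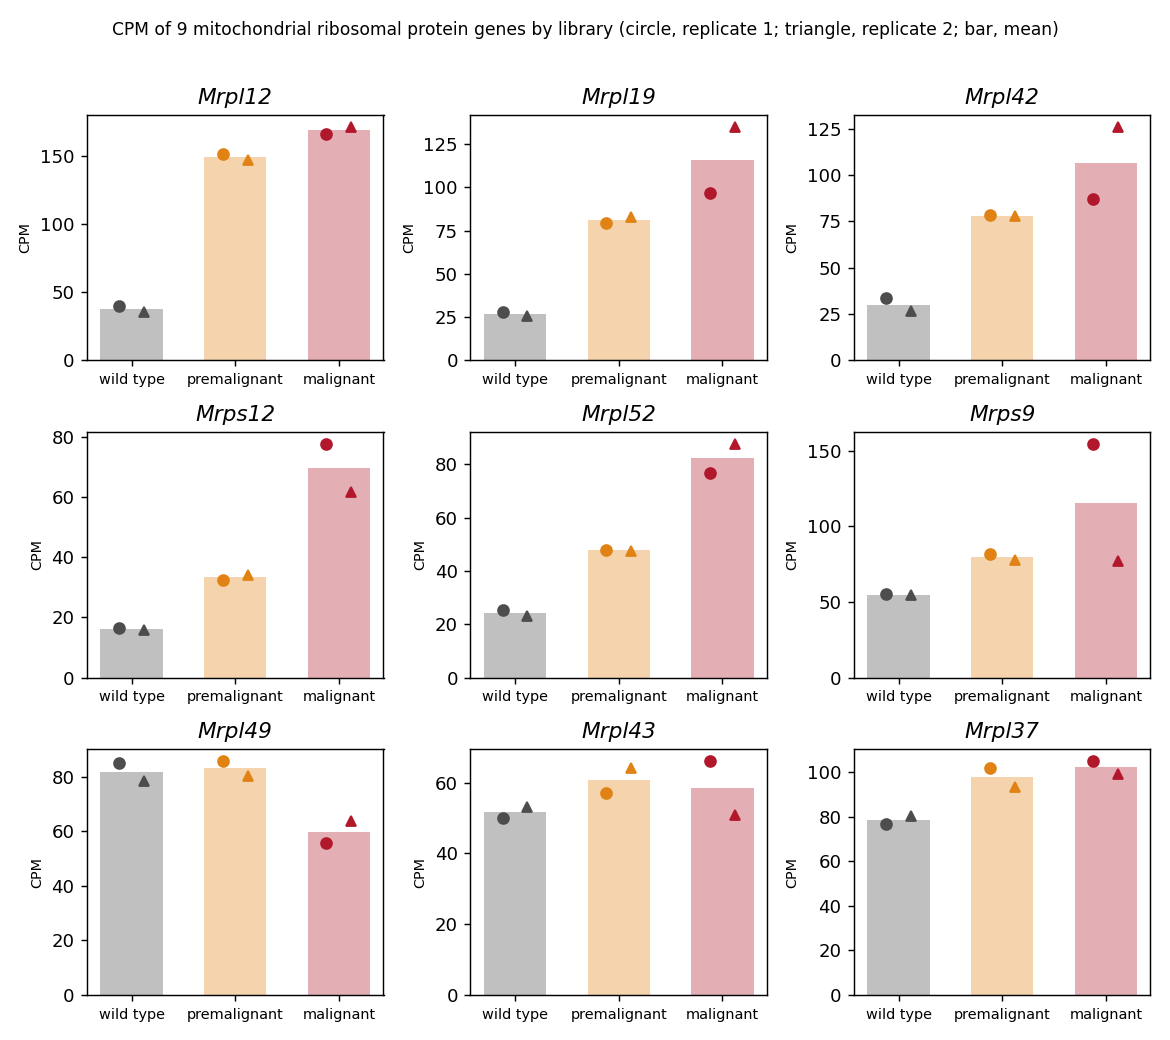
CPM (y axis, from 0) of 9 genes in wild-type, premalignant and malignant cells; circles are replicate 1, triangles replicate 2 and bars the mean of the 2 libraries. Mrpl12, Mrpl19 and Mrpl42 rise mainly between wild type and premalignant, Mrps12 and Mrpl52 rise again in malignant cells, Mrps9 has malignant libraries at 154.5 and 76.8 CPM, and Mrpl49, Mrpl43 and Mrpl37 stay within 2-fold.

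At the other end stood Mrpl49 (ENSMUSG00000007338), the only gene of the 76 with a negative log2 fold change in malignant against wild-type cells. Its level was 85.1 and 78.5 CPM in wild type, 85.7 and 80.2 CPM in premalignant and 55.8 and 63.6 CPM in malignant cells. Both malignant libraries were below all 4 others, while wild type and premalignant overlapped. The log2 fold change was 0.02 ± 0.14 in premalignant (edgeR adjusted p = 0.926) and -0.46 ± 0.14 in malignant cells (edgeR adjusted p = 0.0387), which does not reach the fold threshold. It was past that threshold under upper-quartile scaling and with a minimum of 10 counts in every library. Mrpl49 lies on chromosome 19, bases 6053630 to 6057758 of mm9, and its start is 135 bp from that of Fau, which is transcribed the other way and encodes a fusion of a ubiquitin-like protein with cytosolic ribosomal protein S30. Fau stood at 373 and 416 CPM in wild type, 552 and 571 CPM in premalignant and 684 and 503 CPM in malignant cells, and was called higher in both comparisons (log2 fold changes 0.51 and 0.59, edgeR adjusted p = 0.0799 and 0.0422).

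Mrpl43, Mrpl24, Mrpl37 and Mrpl53 did not pass the thresholds in either Eμ-Myc stage. Mrpl43, with 50.1 and 53.1 CPM in wild type, 57.0 and 64.2 CPM in premalignant and 66.1 and 50.8 CPM in malignant cells, had log2 fold changes of 0.23 ± 0.17 (edgeR adjusted p = 0.346) and 0.18 ± 0.17 (edgeR adjusted p = 0.442). It shares 8.0% of its exon bases with Peo1, which encodes the Twinkle helicase of mitochondrial DNA and went from 21.1 and 21.3 CPM in wild type to 72.3 and 77.0 CPM in premalignant and 66.3 and 87.4 CPM in malignant cells. Mrpl37 stood at 76.5 and 80.4 CPM, then 102 and 93.5 CPM, then 105 and 99.3 CPM. Both Eμ-Myc stages were above wild type without overlap, but the log2 fold changes were 0.32 and 0.38. Mrpl24 stood at 64.6 and 73.7 CPM in wild type, 75.4 and 73.6 CPM in premalignant and 75.9 and 103 CPM in malignant cells. As 26.3% of its exon bases overlap another gene, its value is uncertain. Mrpl53 had between 0.878 and 1.58 CPM in every library, the lowest level of all, and 87.1% of its exon bases also belong to Ccdc142, so that little can be said of it. Mrpl49, Mrpl24, Mrpl43 and Mrpl37 had at least 1876 reads in each wild-type library. In premalignant cells Mrpl33 (log2 fold change 0.48) and Mrps9 (0.54, edgeR adjusted p = 0.228) were not called either, and in malignant cells Mrpl41 (0.46, edgeR adjusted p = 0.105).

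The third comparison asked what differed between the premalignant and the malignant stage. Only Mrps12 and Mrpl52 of the 76 genes rose and none fell, with 3.73% of all genes called higher and 2.45% lower, or 2.92% and 2.95% under upper-quartile scaling, so that the 2 calls are a share of the 76 close to the background. The median log2 fold change was 0.14, or 1.10-fold, within a range of -0.48 to 1.07, and that of all genes was 0.04. Counts rested on the libraries in the fit, since 0 genes were called higher when any 1 of the wild-type or premalignant libraries was left out (0.0% to 1.04% of all genes), 10 without malignant replicate 1 (9.16%) and 6 without malignant replicate 2 (9.94%). At an unadjusted p under 0.05 there were 7 genes higher and 1 lower of the 76, beside 10.5% and 9.34% of all genes.

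MRPS12 is the counterpart of bacterial S12 at the decoding centre. Mrps12 (ENSMUSG00000045948; chromosome 7, bases 29524660 to 29526839 of mm9, minus strand) stood at 16.4 and 15.9 CPM in wild type, 32.6 and 34.1 CPM in premalignant and 77.8 and 61.7 CPM in malignant cells. The level thus rose at each stage with no overlap, by 1.05 ± 0.17 from wild type to premalignant (edgeR adjusted p = 0.00734) and by 1.07 ± 0.17 from premalignant to malignant cells (edgeR adjusted p = 0.0354). The gene Sars2, for mitochondrial seryl-tRNA synthetase, starts 171 bp away in the other direction. It stood at 24.1 and 27.8 CPM in wild type, 44.6 and 44.8 CPM in premalignant and 62.7 and 48.0 CPM in malignant cells, with a log2 fold change of 0.31 ± 0.18 from premalignant to malignant (edgeR adjusted p = 0.405). Mrpl52, for a large-subunit protein without a bacterial counterpart, stood at 25.4 and 23.2 CPM, then 48.0 and 47.4 CPM, then 76.7 and 87.7 CPM. It rose by 0.97 ± 0.14 and then by 0.79 ± 0.14 (edgeR adjusted p = 0.00607 and 0.0516).

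Mrps28 and Mrps16 had the next largest differences between the stages, 0.58 ± 0.15 (edgeR adjusted p = 0.109) and 0.56 ± 0.15 (edgeR adjusted p = 0.119). Both malignant libraries were above both premalignant libraries, at 47.7 and 45.0 CPM against 31.0 and 31.2 CPM for Mrps28 and at 46.2 and 50.9 CPM against 32.2 and 33.7 CPM for Mrps16. DESeq2 called both, along with Mrps12 and Mrpl52, so that it gave 4 genes higher and 1 lower, beside 4.31% and 3.88% of the genes it was given. The lowest values were those of Mrpl49 (-0.48, edgeR adjusted p = 0.139), Mrpl32 (-0.37), Mrps36 (-0.27) and Mrpl53 (-0.22). Mrpl49 was the gene called lower by DESeq2.

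Over the 76 genes, the 2 malignant libraries were farther apart than those of the other stages. The absolute log2 difference between replicates was past 0.5 for 13 of the 76 genes in malignant cells, for Mrpl50 alone in wild type and for Mrpl53 alone in premalignant cells, with medians of 0.21, 0.17 and 0.05. Mrps9, for the counterpart of bacterial S9, stood at 155 CPM in malignant replicate 1 and at 76.8 CPM in replicate 2, beside 81.6 and 77.6 CPM in premalignant cells, and its rise over wild type was 1.08 ± 0.31 (edgeR adjusted p = 0.033). Mrpl30 showed the same direction, at 119 and 70.3 CPM. Mrps6 and Mrps25 went the other way, at 11.9 and 26.7 CPM and at 25.1 and 55.6 CPM. The values of these 2 genes are uncertain, as 43.8% and 53.7% of their exon bases are shared with other genes.

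**Figure D3:**
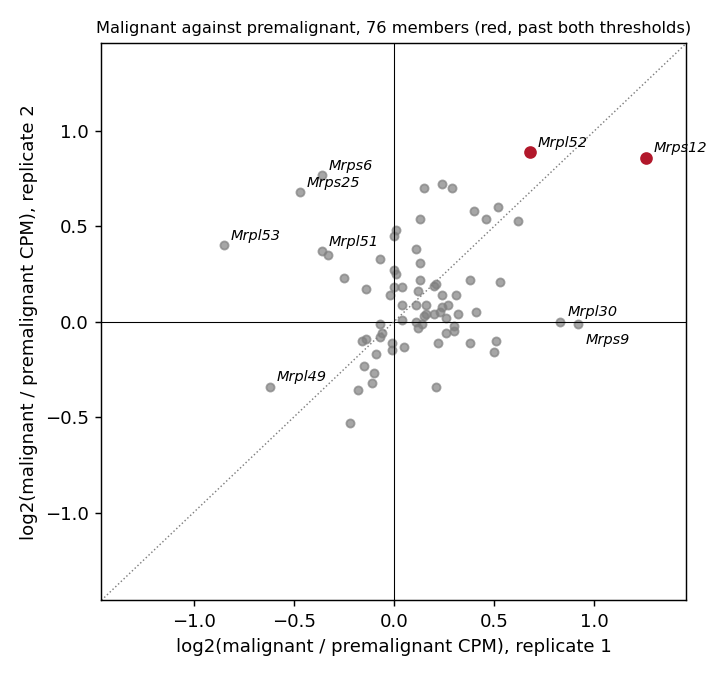
Log2 ratio of malignant to premalignant CPM in the replicate 1 libraries (x axis) and the replicate 2 libraries (y axis) for the 76 genes; the dotted diagonal marks equal ratios and red points passed both thresholds. Mrps12 and Mrpl52 are high on both axes and Mrpl49 is low on both, while Mrps9 and Mrpl30 are high in replicate 1 and Mrps6 and Mrps25 in replicate 2.

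Summed over the 76 genes, the level was 2297 and 2085 CPM in wild type, 3995 and 4016 CPM in premalignant and 4527 and 4489 CPM in malignant cells. The means were 2191 ± 150, 4006 ± 15.0 and 4508 ± 27.4 CPM (SD, n = 2 each), and the stages did not overlap. The ratios were 1.83 for premalignant and 2.06 for malignant over wild type and 1.13 for malignant over premalignant, and with 2 libraries a stage an exact two-sided permutation test cannot go below p = 0.333, the value it gave for each. These ratios depend on the scaling, since TMM sets the libraries by genes taken as unchanged: per total counts they were 1.58, 1.68 and 1.06. As a share of all counts the genes took 0.257% and 0.236% in wild type, 0.392% and 0.386% in premalignant and 0.409% and 0.417% in malignant cells. No spike-in was used here, so a change in the RNA of a whole cell would not be seen.

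**Figure D4:**
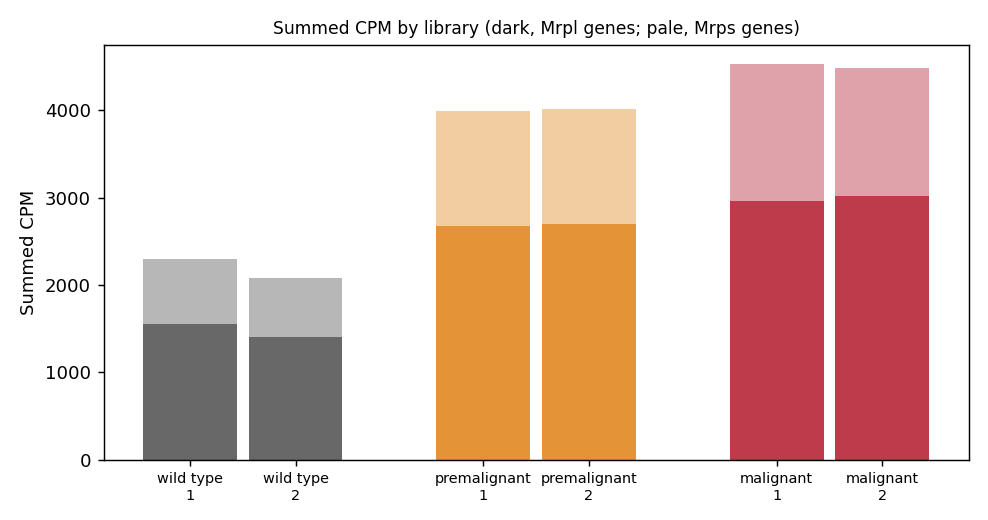
Summed CPM (y axis, from 0) in each of the 6 libraries; the dark part of a bar is the sum over 47 Mrpl genes and the pale part that over 29 Mrps genes. The wild-type bars reach 2297 and 2085 CPM, the premalignant bars 3995 and 4016 CPM and the malignant bars 4527 and 4489 CPM.

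By symbol, 41 of 47 Mrpl genes rose in premalignant and 41 in malignant cells, and of 29 Mrps genes 28 and 29 rose. Over all genes tested the shares were 19% and 24.9%. The ratio of summed Mrpl to summed Mrps CPM was 2.09 and 2.07 in wild type, 2.04 and 2.06 in premalignant and 1.89 and 2.06 in malignant cells, so that only malignant replicate 1 was apart (exact permutation p = 0.333 for malignant vs. wild type). Symbols and subunits do not match throughout. MRPS30 and MRPS18A sit in the large subunit in spite of their names. Mrps30 rose from 29.0 and 29.1 CPM to 62.8 and 63.9 CPM in premalignant and 69.6 and 65.2 CPM in malignant cells. The 3 genes related to bacterial S18 all rose in both stages, Mrps18b by most, at 12.0 and 10.2 CPM in wild type, 31.6 and 28.6 CPM in premalignant and 39.2 and 31.6 CPM in malignant cells. Their log2 fold changes in malignant cells were 1.15 for Mrps18a, 1.67 for Mrps18b and 0.70 for Mrps18c. MRPS36 is now known as a subunit of the 2-oxoglutarate dehydrogenase complex. Mrps36 rose by 0.90 ± 0.23 in premalignant and by 0.63 ± 0.23 in malignant cells (edgeR adjusted p = 0.0289 and 0.0637), and is uncertain because 73.0% of its 50-base windows occur again in the genome.

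By position in the ribosome, all 4 genes of the stalk and its base rose in both stages. Of these Mrpl11, whose protein binds the rRNA where translation factors act, rose by 1.24 and 1.36, Mrpl1 by 0.79 and 0.72, and Mrpl10, which carries the stalk, by 0.69 and 0.63, beside 1.98 and 2.16 for the stalk gene Mrpl12 itself. Mrpl10 and Mrpl12 encode partners in the same stalk, and their levels were 47.8 and 42.1 CPM against 40.0 and 35.7 CPM in wild type but 67.0 and 72.1 CPM against 166 and 172 CPM in malignant cells. Around the exit tunnel 5 of 6 genes rose in each stage, Mrpl24 not being called, with medians of 0.97 and 1.19. Mrpl45, which ties the ribosome to the inner membrane, rose from 28.4 and 28.6 CPM to 53.4 and 60.9 CPM and 63.9 and 58.6 CPM. In the central protuberance all 5 genes rose in both stages, with medians of 0.81 and 0.87. Mrpl44, whose protein resembles RNase III, stood at 24.9 and 21.1 CPM in wild type, 41.9 and 44.5 CPM in premalignant and 59.2 and 39.7 CPM in malignant cells. Of 44 genes with a counterpart in bacteria 41 rose in premalignant and 43 in malignant cells (medians 0.89 and 1.02), and of 26 genes without one 22 and 21 rose (medians 0.81 and 1.03). The differences between these classes were not tested. Over all genes tested, 19% rose in premalignant and 24.9% in malignant cells.

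Levels of different genes were compared per length, as RPKM, that is CPM over the kilobases of merged exons. The median over the 76 genes was 13.8 RPKM for wild type, 26.8 RPKM for premalignant and 28.6 RPKM for malignant cells, with ranges of 1.42 to 59.0, 1.81 to 117 and 1.57 to 199.5. Mrpl52 had the highest level over all libraries, with mean RPKM of 59.0, 116 and 199.5 in the 3 stages. It was followed by Mrpl42 at 45.1, 117 and 160 RPKM and Mrpl12 at 24.7, 97.5 and 110 RPKM. The lowest were Mrpl53, Mrps25 and Mrps10, with means over the 6 libraries of 1.60, 4.54 and 4.92 RPKM. These ranks depend on the merged exon length, which was 8079 bases for Mrps10 and 6576 for Mrps25 but 412 for Mrpl52 and 666 for Mrpl42. In CPM, Mrps10 was at 28.4 in both wild-type libraries, above Mrps34 at 6.25 and 7.05 CPM. The order of levels was compared between stages, with Spearman's rho over the 76 genes of 0.96 between wild type and premalignant and 0.92 between wild type and malignant cells. These points share gene lengths and libraries, and the rho is a description.

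To look at sequence next to these changes, RefSeq windows (GRCm38.p6) were searched for 67 of the 76 genes that had an entry. A window ran from 250 bases before to 50 bases after a start. Only the first listed window of each gene was searched, here and for all other genes, and Mrpl2, Mrpl48 and Mrps16 had further entries. The letters searched on both strands were CACGTG (the E-box), CCGGAAG (an ETS core), GCGCATGC (a core of the NRF1 site) and AAGATGGC (a YY1 core), and no 2 of them overlapped in a window of these genes. The E-box was in 5 of 67 windows, 7.46%, beside 7.24% of all 27025 windows and 9.9% of the 10066 windows of genes tested. The ETS letters were in 34.3% of the 67 windows, beside 9.12% of all and 17.0% of those of genes tested. For NRF1 the shares were 11.9%, 2.8% and 5.09%, and for YY1 17.9%, 2.88% and 4.43%, while 30 of the 67 windows held none of the 4. The 5 genes with an E-box, Mrpl2, Mrpl20, Mrpl36, Mrpl37 and Mrps18c, had a median log2 fold change of 1.03 in malignant cells, and the 62 without had 1.01. A match is a description of letters and says nothing of binding. The windows that follow are those of the genes with the largest rises from wild type to malignant cells that had an entry (Mrpl12, Mrps12, Mrpl42), the other gene that rose from premalignant to malignant (Mrpl52), a gene with an E-box that rose (Mrpl36) and the gene with the lowest value (Mrpl49). They run 5′ to 3′ along the gene, and capitals mark the letters searched on either strand.

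Mrpl12, chr11:120484387-120484686, plus strand: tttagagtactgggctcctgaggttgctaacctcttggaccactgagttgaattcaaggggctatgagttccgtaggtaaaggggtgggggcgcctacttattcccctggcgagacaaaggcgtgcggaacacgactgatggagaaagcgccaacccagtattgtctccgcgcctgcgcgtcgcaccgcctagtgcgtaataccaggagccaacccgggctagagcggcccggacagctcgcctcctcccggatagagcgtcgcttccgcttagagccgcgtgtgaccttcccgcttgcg

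Mrpl42, chr10:95501900-95502199, minus strand: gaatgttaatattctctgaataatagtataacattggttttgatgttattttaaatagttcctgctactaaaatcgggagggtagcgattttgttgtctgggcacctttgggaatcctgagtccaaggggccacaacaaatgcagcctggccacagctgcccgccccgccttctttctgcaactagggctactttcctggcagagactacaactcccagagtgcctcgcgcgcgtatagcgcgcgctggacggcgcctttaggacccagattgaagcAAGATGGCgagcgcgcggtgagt

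Mrps12, chr7:28741772-28742071, minus strand: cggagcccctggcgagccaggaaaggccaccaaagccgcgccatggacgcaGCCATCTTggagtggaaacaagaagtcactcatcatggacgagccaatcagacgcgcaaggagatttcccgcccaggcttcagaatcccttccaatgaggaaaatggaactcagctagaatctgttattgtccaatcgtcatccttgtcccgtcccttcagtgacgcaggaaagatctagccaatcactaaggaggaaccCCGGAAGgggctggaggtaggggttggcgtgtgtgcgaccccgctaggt

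Mrpl52, chr14:54426659-54426958, plus strand: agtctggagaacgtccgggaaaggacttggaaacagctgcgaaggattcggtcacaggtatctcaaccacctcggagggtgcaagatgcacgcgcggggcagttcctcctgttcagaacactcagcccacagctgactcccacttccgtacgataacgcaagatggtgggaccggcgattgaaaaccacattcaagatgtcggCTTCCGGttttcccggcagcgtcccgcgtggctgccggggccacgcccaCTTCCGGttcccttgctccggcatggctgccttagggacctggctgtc

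Mrpl36, chr13:73330759-73331058, plus strand: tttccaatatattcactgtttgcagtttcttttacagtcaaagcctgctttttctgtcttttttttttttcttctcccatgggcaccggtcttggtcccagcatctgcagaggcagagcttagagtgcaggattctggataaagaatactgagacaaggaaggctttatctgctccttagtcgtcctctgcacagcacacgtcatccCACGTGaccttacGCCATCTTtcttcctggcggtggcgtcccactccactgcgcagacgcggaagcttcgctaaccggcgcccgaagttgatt

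Mrpl49, chr19:6057706-6058005, minus strand: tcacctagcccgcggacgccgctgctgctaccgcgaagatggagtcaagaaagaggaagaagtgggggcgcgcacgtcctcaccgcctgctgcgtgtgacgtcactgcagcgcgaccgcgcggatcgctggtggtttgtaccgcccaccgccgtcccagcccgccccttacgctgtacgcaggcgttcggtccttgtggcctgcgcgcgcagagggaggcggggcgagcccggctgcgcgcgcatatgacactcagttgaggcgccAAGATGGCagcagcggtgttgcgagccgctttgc

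The window of Mrpl12 held none of the 4 letter strings, that of Mrps12 a YY1 and an ETS string and that of Mrpl52 a pair of ETS strings. Mrpl36, with an E-box that begins at base -43, stood at 30.5 and 26.7 CPM in wild type, 62.9 and 66.9 CPM in premalignant and 75.7 and 71.1 CPM in malignant cells, all Eμ-Myc libraries being above wild type. Mrpl37 also held an E-box and did not pass the thresholds. The YY1 letters just after the start were present in Mrpl42, which rose, and in Mrpl49, which did not.

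Of the 76 genes, 16 start within 1000 bp of a protein-coding gene that runs the other way without overlapping it. Pairs that overlap at their starts, such as Mrpl46 and Mrps11, were left out of this count. Of the 16 neighbours, 15 were tested. In premalignant cells 8 neighbours rose and 1 fell, with a median of 0.51, and in malignant cells 7 rose and 2 fell, with a median of 0.59. Over all genes 19% rose and 20.3% fell in premalignant cells and 24.9% and 24.3% in malignant cells. Of the 16 ribosomal genes 14 and 13 rose. Eme2, a subunit of a DNA repair nuclease, is 29 bp from Mrps34. It fell from 20.2 and 28.5 CPM in wild type to 10.9 and 10.8 CPM in malignant cells, whereas Mrps34 rose from 6.25 and 7.05 CPM to 18.7 and 18.1 CPM. As 77.8% of the exon bases of Mrps34 are shared with another gene and the kit does not mark strand, this pair is uncertain.

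Some proteins of the mitochondrial ribosome carry other symbols. Of 7 such genes 6 rose in premalignant and 7 in malignant cells, beside 19% and 24.9% of all genes, with medians of 0.98 and 1.24. Dap3, for a GTP-binding protein of the small subunit, went from 58.0 and 56.4 CPM to 115 and 117 CPM and to 122 and 149 CPM, and Ptcd3, for a pentatricopeptide repeat protein, from 63.6 and 62.5 CPM to 128 and 131 CPM and to 119 and 178 CPM. Chchd1 and Gadd45gip1 rose by 1.52 and 1.37 in malignant cells, and Aurkaip1 and Ict1, the latter a peptidyl-tRNA hydrolase built into the large subunit, by 0.63 and 0.65. Mrp63 stood at 33.5 and 30.2 CPM in wild type, 45.0 and 44.7 CPM in premalignant and 83.6 and 70.6 CPM in malignant cells. Like Mrpl52, it was called between premalignant and malignant cells (log2 fold change 0.78, edgeR adjusted p = 0.0583). Unlike Mrpl52, it was not called between wild type and premalignant cells (log2 fold change 0.49, edgeR adjusted p = 0.0514).

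The assembly list holds genes that build the ribosome and modify its rRNA. Of 24 assembly factors and rRNA-modifying enzymes tested, 11 rose in premalignant and 11 in malignant cells, with medians of 0.57 and 0.61. Over all genes tested, 19% rose and 20.3% fell in premalignant cells, and 24.9% and 24.3% in malignant cells. Rnmtl1, for an rRNA ribose methyltransferase, went from 5.15 and 4.33 CPM to 18.9 and 15.8 CPM and 19.6 and 20.3 CPM, and Mtg1, for a GTPase of large subunit assembly, from 11.2 and 11.3 CPM to 26.7 and 24.8 CPM and 38.2 and 30.1 CPM. Mterfd1 and the rRNA methyltransferase gene Nsun4 fell in malignant cells, by 0.54 and 0.62 on the log2 scale. Among 15 translation factors 8 and 10 rose, led by Lrpprc, which stabilises mitochondrial mRNAs, at 74.1 and 66.4 CPM in wild type, 181 and 193 CPM in premalignant and 229 and 242 CPM in malignant cells, and by the elongation factor gene Tsfm at 1.45 and 1.66. Gfm2, for a factor that recycles ribosomes, had log2 fold changes of 0.01 and -0.12. Of 8 genes for transcription and replication of mitochondrial DNA 5 rose in each stage, among them Peo1 (1.82 and 1.86) and the packaging factor gene Tfam (0.80 and 1.10).

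The templates of this ribosome are encoded by mitochondrial DNA. Of 12 mRNAs tested, 7 rose in premalignant and 6 in malignant cells, beside 19% and 24.9% of all genes. Their medians were 0.53 and 0.51, and mt-Nd1 and mt-Atp6 rose most, by 0.97 and 0.95 in malignant cells. The mitochondrial rRNAs, seen here in poly(A) libraries, did not rise. The large rRNA mt-Rnr2 was at 330 and 313 CPM in wild type, 190 and 392 CPM in premalignant and 158 and 120 CPM in malignant cells, where it was called lower (log2 fold change -1.21, edgeR adjusted p = 0.0299), and the small rRNA mt-Rnr1 was at 232 and 168 CPM, 145 and 171 CPM, and 79.7 and 171 CPM. Of 14 genes for other proteins of the matrix and membranes 13 and 12 rose, with medians of 1.11 and 1.31. The chaperones Hspd1 and Hspa9 rose most, Hspd1 from 141 and 134 CPM to 671 and 686 CPM and to 1065 and 755 CPM.

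Cytosolic ribosomal protein genes were set beside them. Of 78 such genes 76 rose in premalignant and 77 in malignant cells, beside 19% and 24.9% of all genes, with medians of 1.19 and 1.46. Between the 2 stages 2 of the 78 rose, or 2.56% beside 3.73% of all genes. Rps12 and Rps4y2 had the largest absolute changes in malignant cells, 2.22 and -4.24. Summed, the cytosolic genes stood at 15.8 and 16.0 times the mitochondrial ones in wild type, 20.3 and 20.0 times in premalignant and 24.8 and 19.6 times in malignant cells. The ratio was thus above wild type in all 4 Eμ-Myc libraries (exact permutation p = 0.333, the smallest the design allows), and malignant replicate 1 stood apart from its partner.

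**Figure D5:**
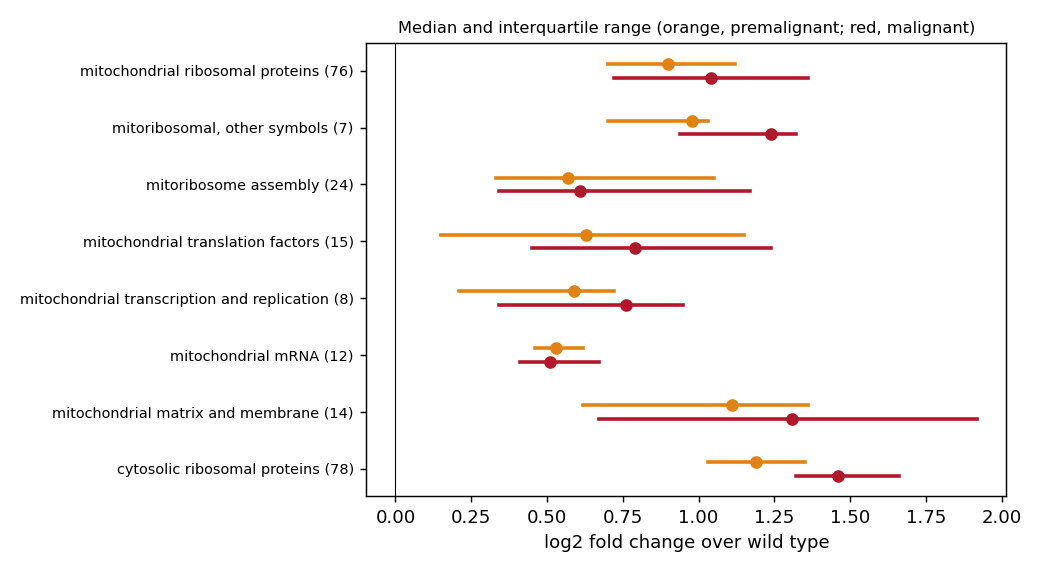
Median (points) and interquartile range (lines) of the log2 fold change over wild type (x axis) for 8 gene lists (y axis, number of genes tested in parentheses) in premalignant (orange) and malignant (red) cells. The medians of the mitochondrial ribosomal proteins, 0.90 and 1.04, lie between those of mitochondrial mRNAs, 0.53 and 0.51, and those of cytosolic ribosomal proteins, 1.19 and 1.46.

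Some of the 76 genes share sequence with others. In 9 at least 20% of the 50-base windows, the read length, occur again in the genome, and in 9 at least 20% of exon bases overlap another gene. Mrps18b is in both groups, with 49.9% of windows and 30.5% of exon bases. Among the 59 genes under both limits 54 rose in premalignant cells, 55 rose in malignant cells and none fell, with medians of 0.89 and 1.05, and Mrps12 and Mrpl52 were the 2 called between the Eμ-Myc stages. Over all genes tested, 19% rose and 20.3% fell in premalignant cells, and 24.9% and 24.3% in malignant cells.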

How the data were processed

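RNA-seq counts of 6 libraries were analysed, 2 for each stage, grouped by their titles. The authors sequenced poly(A) RNA (TruSeq RNA v2, HiSeq2500, 50-base single reads), aligned it with TopHat and deposited raw HTSeq counts per Ensembl gene. The submitters' processing notes name CASAVA 1.8.2, Bowtie, HTSeq, DESeq and mm9, and HTSeq's options are not given in the sources used here. Deposited tables of pooled means, fold changes and p-values were not used.

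Counts were tested here with edgeR 4.0.16 (R 4.3.3; filterByExpr, TMM, quasi-likelihood, all 6 libraries in 1 fit, Benjamini-Hochberg over 16683 genes) at the study's thresholds for the FDR (0.1) and for the size of the log2 fold change (0.5). The standard error is the log2 fold change over the root of F. CPM and RPKM use TMM library sizes and merged GENCODE vM1 exons (NCBIM37). Alternatives were DESeq2 1.42.0, upper-quartile scaling, other filters and thresholds, only the compared stages, the replicate number as a block, total counts, and leaving out each library. Members with the 4 highest and 4 lowest fold changes per comparison, those called between Eμ-Myc stages, the 3 highest and 3 lowest in RPKM and 12 chosen for their roles were named. So were Myc, the mitochondrial rRNAs, all 7 genes with other symbols and, from each remaining list of mitochondrial or cytosolic genes, the 2 of largest change in malignant cells. Others (Mrps9, Mrps6, Mrps34, Mrpl2, Mrpl20, Mrpl30, Mrpl33, Mrpl36, Mrpl41, Mrpl50, divergent neighbours, Mterfd1, Nsun4, Gfm2, single cell type markers) were named after their values were seen. The members, lists and motifs were chosen with earlier results of these data known. The study gives individual animals as the biological replicates of its sorted pre-B cells, and its RNA-seq methods name 2 biological replicate experiments. With 2 a stage the estimate of spread is coarse.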

Additional observations from a re-analysis of the deposited data

How the results depend on the processing

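The counts of 69 and 70 genes that rose over wild type were within 1.5 times of these values under DESeq2, upper-quartile scaling, either filter on low counts, an FDR of 0.05 and fits of the compared stages. With a threshold of 1 on the log2 fold change they were 25 and 42. Leaving out single libraries gave 31 to 71 genes in premalignant and 54 to 68 in malignant cells. The number called lower in malignant cells was 1, Mrpl49, under upper-quartile scaling, at least 10 counts in every library or no minimum fold change, and 0 to 1 without single libraries. The median in malignant cells was 0.87 under upper-quartile scaling, which shifts the median of all genes by -0.17, 0.95 with at least 10 counts, and 0.98 to 1.08 without single libraries. Between premalignant and malignant cells DESeq2 called 4 genes higher and 1 lower, upper-quartile scaling 1 lower with a median of 0.06, and the fit of the compared stages, an FDR of 0.05 and a log2 fold change of at least 1 each called 1 higher. Leaving out single libraries gave 0 to 10 higher, 0 to 1 lower and a median of 0.10 to 0.16. Summed CPM per total counts was 2462, 3892 and 4129, and 4256 in malignant cells under upper-quartile scaling. The cause of these changes was not tested.

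Values near 0 changed sign. Mrpl49 in premalignant cells was -0.06 under upper-quartile scaling, -0.04 with at least 10 counts and -0.03 to 0.09 without single libraries. Mrpl53 in malignant cells was -0.03 under upper-quartile scaling and -0.23 to 0.46 without single libraries, and against premalignant cells -0.64 to 0.10. Mrpl43 in malignant cells was -0.01 to 0.38 without single libraries, the lowest without malignant replicate 1.

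With the replicate number as a block 66, 70 and 2 genes rose in the 3 comparisons, and the median in malignant cells was 1.02. With 2 libraries a stage the numbers are not known to pair the animals: same-numbered libraries deviated together over genes with correlations of 0.51, 0.19 and 0.26. No count moved by over 1.5 times under the block.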
